A study of Mus musculus with 6 samples.

Results

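Collagens are the fibre- and network-forming proteins of the extracellular matrix, and 36 collagen genes whose products are not confined to cartilage were followed here by gene symbol, among 56691 gene identifiers in the bulk RNA-seq of the mouse palate. The genes were listed by family membership, with earlier results of these data known. Of the 36, 32 had enough reads to be tested among the 15673 genes tested. The libraries came from the anterior and the posterior 1/3 of palatal shelves that were microdissected from C57BL/6J mouse embryos at E14.0, with 3 libraries per region and no treatment or mutation in either. The comparison asks how gene expression differs along the anterior-posterior axis of the shelf at the stage when it elevates. The study describes the 6 libraries as biologically independent samples, and the labels do not tie a library to an animal or a litter, so the p-values measure the spread between these samples. Each piece of shelf holds mesenchyme, epithelium, vessels and other cells together, and in such bulk samples fewer cells of a type and less RNA per cell cannot be told apart.

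Each collagen molecule is a trimer of chains wound into a triple helix, and the classes differ in what the trimers build. Fibrillar collagens form the tension-bearing fibrils of mesenchyme, FACIT collagens sit on the surface of those fibrils, beaded-filament collagens form microfibrils around cells, and network collagens form the sheets of basement membranes. Transmembrane collagens stay anchored in the plasma membrane of epithelial, muscle or nerve cells. In the palatal shelf, collagen is a main part of the matrix that surrounds the mesenchyme, together with hyaluronan.

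Reverse-stranded counts per library ranged from 11378736 to 15172733. Among the 3 posterior libraries, replicates 2 and 3 stood apart from the rest. In them 6.12% and 5.94% of reads were multimapping, whereas the 4 other libraries had 8.45% to 8.77%, and the mitochondrial share of counts was 0.973% and 1.14%, whereas the others had 2.70% to 2.97%. Long transcripts were also higher in the posterior group: the 3882 tested genes with transcripts of at least 4737 bases had a median log2 fold change of 0.26, which was -0.03 once the model also parted posterior replicates 2 and 3 from the other libraries (the library-group term). Most collagen transcripts are of this length. The collagen calls below are therefore also given with that term, in which the regional comparison rests on posterior replicate 1. With a correction for transcript length, the median of the long transcripts was -0.0027. Of the marker lists, those of palatal mesenchyme, 6 of 6 measured, summed to 1706 to 1839 CPM (counts scaled to library size) in the anterior and 1405 to 1737 CPM in the posterior libraries, with 2 called higher in the posterior and 1, Prrx1, in the anterior palate. Skeletal muscle markers summed to 11.8 to 15.9 CPM against 612 to 1071 CPM, with 10 of 10 called higher in the posterior palate. Tendon markers summed to 80.6 to 95.0 CPM against 178 to 196 CPM, with 3 of 6 called higher in the posterior and 2 in the anterior palate. Of all genes tested, 4.87% were called higher in the posterior and 2.59% in the anterior palate.

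The 36 genes together took a larger share of the counts in every posterior library. The share was 1.78%, 1.70% and 1.72% in anterior replicates 1 to 3 and 2.13%, 3.18% and 3.76% in posterior replicates 1 to 3. The groups did not overlap, and posterior replicate 1 was closer to the anterior libraries than to the other posterior ones. The means were 1.73% ± 0.0400 and 3.02% ± 0.825 (SD, n = 3 each), a difference of 1.29 percentage points with a two-sided exact permutation p = 0.1, the smallest that 3 against 3 libraries can give. Col1a1, Col1a2 and Col3a1, which encode the chains of the common fibrils of type I and type III collagen, held 60.2% to 66.5% of these counts.

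**Figure D1:**
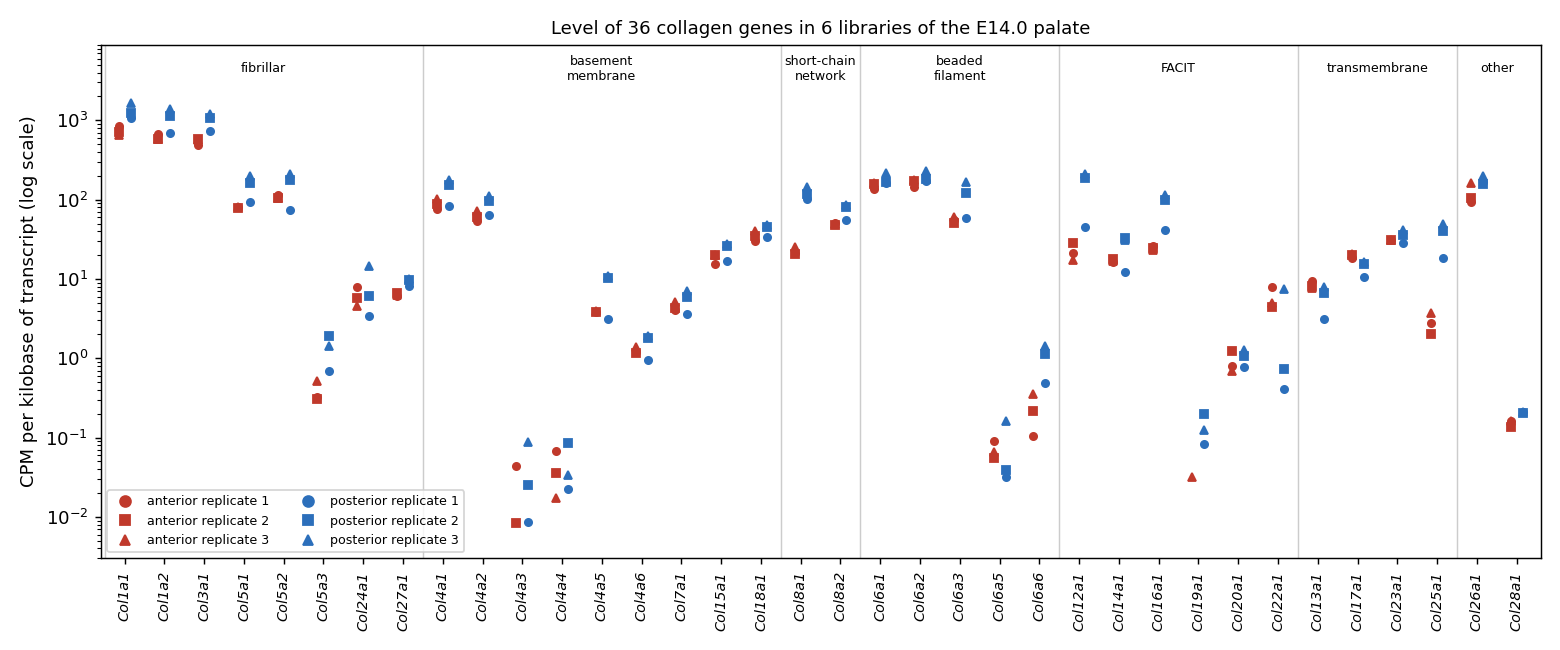
Level of each of the 36 collagen genes in CPM per kilobase of transcript (log scale), with anterior libraries in red and posterior libraries in blue. The chains of type I and type III collagen lie above all others, and 3 values of 0 are not drawn.

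Per length of transcript, the fibrillar chains led the order of the levels. Averaged over the 6 libraries, Col1a1 stood at 1037 CPM per kilobase, Col1a2 at 841 and Col3a1 at 779. The beaded-filament chains Col6a2 and Col6a1 followed at 180 and 167 CPM per kilobase. The libraries of Col1a2 and Col3a1 overlapped, as did those of Col6a2 and Col6a1. At the low end, Col4a3, Col4a4, Col6a5 and Col19a1 stood below 0.1 CPM per kilobase and were not tested.

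With edgeR's quasi-likelihood test and Benjamini-Hochberg adjustment over all genes tested, 8 of the 32 collagen genes tested rose in the posterior palate (4.87% of all genes tested did), namely Col3a1, Col5a3, Col27a1, Col8a1, Col6a6, Col12a1, Col16a1 and Col25a1. None was called higher in the anterior palate by edgeR (2.59% of all genes tested were), by DESeq2 (4.06%) or by limma-voom (2.57%). At an unadjusted p under 0.05, edgeR gave 1 higher in the anterior palate, Col17a1, DESeq2 the same 1 and limma-voom 2. At that threshold 17, 17 and 14, respectively, were higher in the posterior palate. The share of all genes at an unadjusted p under 0.05 is not given here, so these counts lack a baseline. The median log2 fold change, posterior over anterior, was 0.55 over the 32 genes and -0.0040 over all genes tested, and 29 of the 32 values were positive. In 14 of the 32 genes every posterior library lay above every anterior one (14.7% of all genes tested), and in 1, Col17a1, every anterior library lay above (13.4%). With the library-group term, 5 of the 32 were called higher in the posterior palate (4.40% of all genes tested) and 4 higher in the anterior palate (3.21%), and the median was 0.09. The 5 were Col27a1, Col8a1, Col12a1, Col16a1 and Col25a1, all among the 8 above, and 11 genes turned from a positive to a negative fold change. With the correction for transcript length, 8 were called higher in the posterior palate (5.17% of all genes tested) and 1 in the anterior palate (3.76%), and the median was 0.30. The count of called genes was 26 without posterior replicate 1, where 46.4% of all genes tested were called, and 2 or 3 without any other single library, anterior or posterior, with Col8a1 and Col25a1 among them each time and 3.23% to 4.15% of all genes tested called. The other 6 called genes each lost the call when any of those 5 libraries was left out, and Col5a3 and Col6a6 also lost it in limma-voom (adjusted p = 0.0776 and 0.0719). Col8a1 and Col25a1 were called in all 20 fits that were run.

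**Figure D2:**
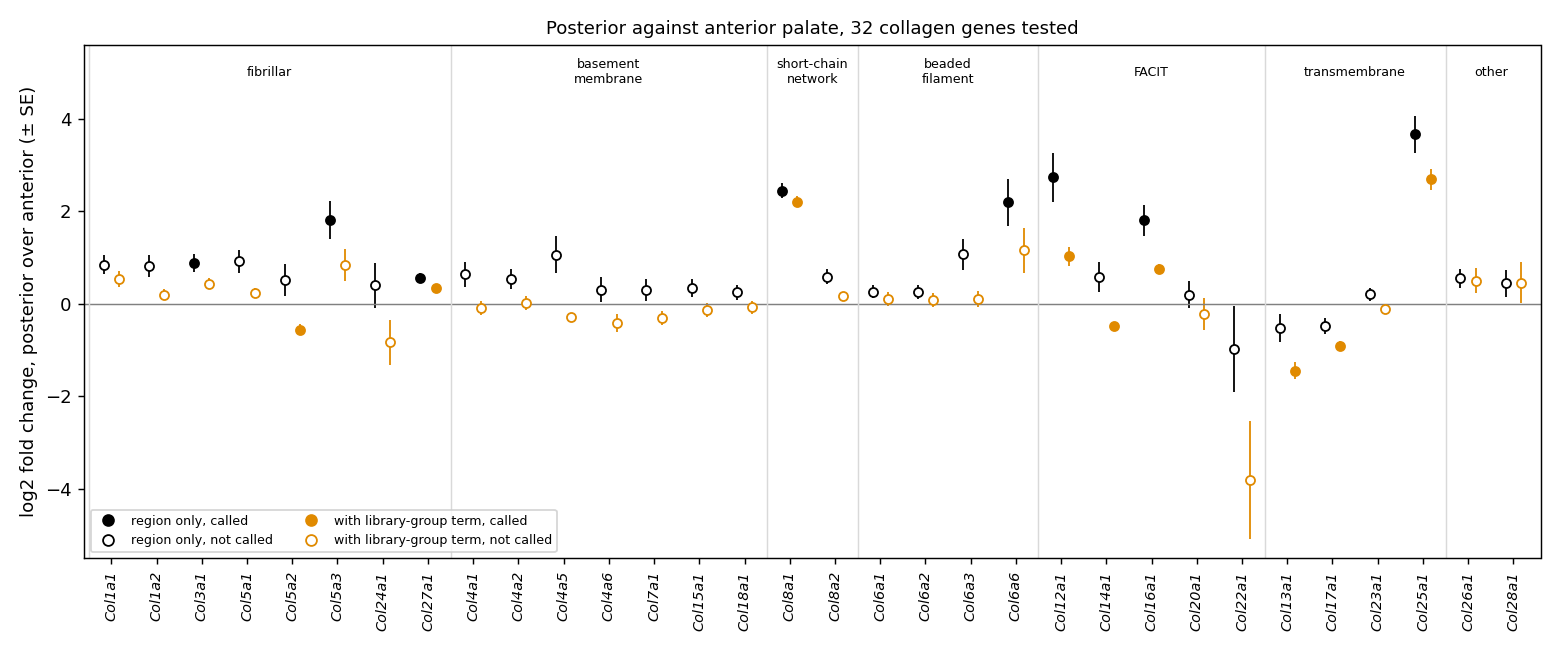
Log2 fold change (± SE), posterior over anterior, of the 32 collagen genes tested, with region as the only term (black) and with the library-group term (orange), and filled points for adjusted p under 0.05. In orange, 6 of 8 fibrillar and 1 of 7 basement membrane fold changes stay positive, and Col8a1, Col12a1, Col16a1 and Col25a1 stay above 0 in both fits.

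The promoters of Col8a1, Col25a1 and Col16a1 are shown because these genes are called higher in the posterior palate in both fits and stand for the network, transmembrane and FACIT classes. Each sequence is the 250 bases before the RefSeq start on build GRCm38.p6, 5′ to 3′ on the gene's strand, with GGGCGG, the core of a GC box, and CCAAT in capitals on either strand (CCGCCC and ATTGG are the reverse forms, and ATTGG can share its last bases with GGGCGG). Col8a1 lies at chr16:57754738-57754987 on the minus strand, Col25a1 at chr3:130180595-130180844 on the plus strand and Col16a1 at chr4:130047590-130047839 on the plus strand.
Col8a1: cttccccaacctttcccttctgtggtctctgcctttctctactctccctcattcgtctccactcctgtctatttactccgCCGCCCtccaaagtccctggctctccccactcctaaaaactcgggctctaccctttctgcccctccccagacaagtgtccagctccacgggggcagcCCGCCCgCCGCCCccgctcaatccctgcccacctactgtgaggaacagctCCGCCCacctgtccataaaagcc
Col25a1: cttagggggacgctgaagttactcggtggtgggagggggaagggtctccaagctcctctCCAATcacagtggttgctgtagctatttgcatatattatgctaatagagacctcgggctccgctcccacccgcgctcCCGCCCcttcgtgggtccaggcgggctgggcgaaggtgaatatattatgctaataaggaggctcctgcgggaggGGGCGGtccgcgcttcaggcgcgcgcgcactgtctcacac
Col16a1: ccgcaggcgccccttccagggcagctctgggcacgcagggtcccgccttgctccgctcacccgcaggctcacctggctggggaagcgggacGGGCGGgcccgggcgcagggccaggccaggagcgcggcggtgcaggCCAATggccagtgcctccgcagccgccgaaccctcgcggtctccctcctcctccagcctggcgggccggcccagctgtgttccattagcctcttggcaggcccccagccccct
The Col8a1 window held 4 matches of GGGCGG and no CCAAT, the Col25a1 window 2 and 1, and the Col16a1 window 1 and 1. The table held promoters of 29 of the 36 collagen genes, of which 17 (58.6%) had GGGCGG, against 32.9% of 27025 promoters, and 10 (34.5%) had CCAAT, against 34.5%. The Col25a1 window carried the 16-base run atatattatgctaata in 2 copies, and 2.01% of all promoters held a repeat as long. Its RefSeq start lay 49344 bases inside the gene as GENCODE M21 draws it, and the Col16a1 window overlapped an exon of the antisense gene Gm12963. A match is a description of the letters and not of binding.

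Among the 8 fibrillar genes, 3 were called and all 8 fold changes were positive, with a median of 0.83. Col3a1, the chain of type III collagen in pliable connective tissue, stood at 2736, 3262 and 3162 CPM in the anterior and 4140, 5966 and 6755 CPM in the posterior libraries. Every posterior library was above every anterior one, and posterior replicate 1 was the lowest of them. The log2 fold change was 0.88 (SE 0.20, adjusted p = 0.0415, edgeR), and with the library-group term it was 0.44 (SE 0.12, adjusted p = 0.0645, edgeR). Col1a1, the main chain of type I collagen and the highest of the fibrillar genes per length, stood at 5092, 4212 and 3901 CPM against 6387, 7386 and 9906 CPM. These groups did not overlap either, but the fold change of 0.84 (SE 0.20, adjusted p = 0.0503, edgeR) missed the threshold of 0.05. It passed with DESeq2 (adjusted p = 0.000301), limma-voom (adjusted p = 0.0412) and the length correction (adjusted p = 0.0417, edgeR), and with the library-group term it was 0.54 (adjusted p = 0.135, edgeR). Col1a2 and Col5a1 likewise had no overlap, with log2 fold changes of 0.82 and 0.92, and were called by DESeq2 and not by edgeR. DESeq2 called 6 of the 8 fibrillar genes higher in the posterior palate, and 8.56% of all genes tested.

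Col27a1, a fibrillar collagen with a shortened helix, had a small and even difference. It stood at 45.8, 50.5 and 47.7 CPM in the anterior and 61.2, 74.9 and 75.8 CPM in the posterior libraries. All 3 posterior libraries lay above the anterior range. Its log2 fold change was 0.56 (SE 0.11, adjusted p = 0.0261, edgeR), 0.35 with the library-group term (SE 0.09, adjusted p = 0.0485, edgeR), and 0.25 with a correction for transcript length (adjusted p = 0.144, edgeR), where the call was lost.

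Col5a3, a minor chain of type V collagen, was scarce. It gave 26, 26 and 37 counts in the anterior and 56, 161 and 129 counts in the posterior libraries, or 1.97, 1.89 and 3.20 CPM against 4.19, 11.6 and 8.85 CPM. The posterior libraries were all higher, replicate 1 by the least. Its log2 fold change was 1.81 (SE 0.41, adjusted p = 0.0393, edgeR) and 0.84 with the library-group term (SE 0.34, adjusted p = 0.220, edgeR).

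Col5a2, whose product joins that of Col5a1 in the type V trimers that start type I fibrils, behaved otherwise. It stood at 766, 688 and 689 CPM in the anterior and 486, 1166 and 1414 CPM in the posterior libraries. Posterior replicate 1 lay below all anterior libraries and the other posterior libraries above them. With region alone the log2 fold change was 0.52 (SE 0.34, adjusted p = 0.369, edgeR), and with the library-group term it was -0.56 (SE 0.12, adjusted p = 0.0322, edgeR). Col5a2 is the neighbour of Col3a1 on chromosome 1, tail to tail with a gap of 24614 bases.

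**Figure D3:**
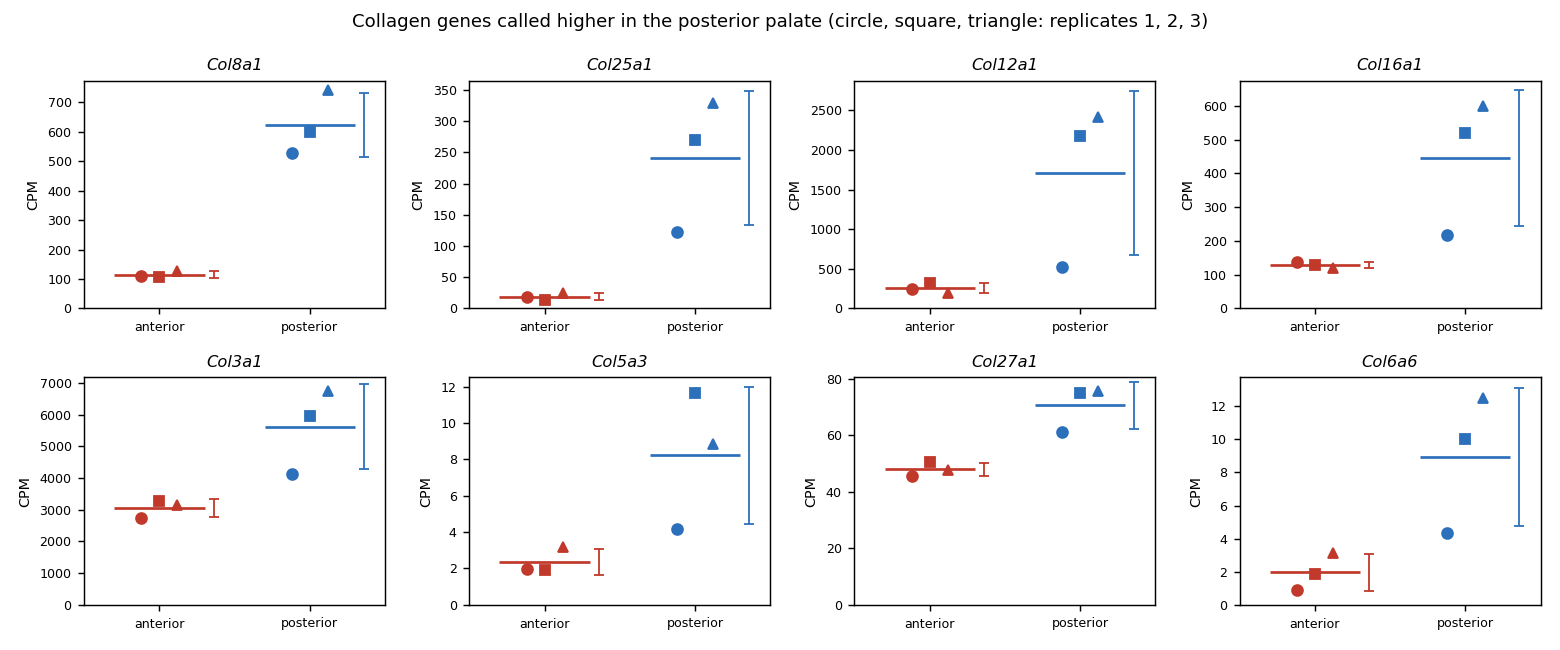
CPM in each library of the 8 collagen genes called higher in the posterior palate, with lines for the group means and bars for the SD (n = 3). Posterior replicate 1 (circle) is the lowest posterior library in all 8 panels and lies above the anterior libraries in each.

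None of the 7 basement membrane genes tested was called by edgeR, with 3 higher in the posterior palate at an unadjusted p under 0.05 and none lower. No share of all genes is given for that unadjusted threshold. DESeq2 called 1, Col4a5, and limma-voom none. Type IV collagen is the network of every basement membrane, and its chain genes lie in head-to-head pairs. Col4a1 stood at 503, 581 and 664 CPM in the anterior and 545, 1009 and 1158 CPM in the posterior libraries. Col4a2, which starts within 22 bases of shared sequence with Col4a1 on chromosome 8, stood at 347, 395 and 470 CPM against 408, 623 and 716 CPM. In both genes posterior replicate 1 lay within the anterior range and the other posterior libraries above it. The log2 fold changes were 0.63 (SE 0.27, adjusted p = 0.191, edgeR) and 0.53 (SE 0.22, adjusted p = 0.183, edgeR). With the library-group term they were -0.10 and 0.01. Endothelial markers, whose cells rest on such membranes, summed to 463 to 482 CPM in the anterior libraries and to 407, 606 and 653 CPM in posterior replicates 1 to 3, and their part in the Col4a1 values was not tested.

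The X-linked pair Col4a5 and Col4a6, 1308 bases apart, encodes chains of the basement membranes of epithelia and smooth muscle. Col4a5 stood at 25.1, 25.1 and 25.8 CPM in the anterior libraries, nearly one level, and at 20.7, 67.2 and 70.3 CPM in the posterior ones. Col4a6 stood at 7.97, 7.78 and 9.34 CPM against 6.29, 11.9 and 12.7 CPM. In both, posterior replicate 1 was the lowest of the 6 libraries and the other posterior libraries the highest. The log2 fold changes were 1.06 (SE 0.40, adjusted p = 0.157, edgeR) and 0.30 (SE 0.27, adjusted p = 0.490, edgeR), and -0.29 and -0.41 with the library-group term. The third pair, Col4a3 and Col4a4, 71 bases apart, builds the mature membranes of kidney and lung. It gave 5, 1 and 0 counts in the anterior and 1, 3 and 11 in the posterior libraries for Col4a3, and 9, 5 and 2 against 3, 12 and 5 for Col4a4. Many of these are at or near 3 counts, the limit that a count of 0 allows, and neither gene was tested. The other basement membrane genes, Col7a1, Col15a1 and Col18a1, had log2 fold changes of 0.25 to 0.34 and overlapping groups.

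Col8a1 and Col8a2 encode the chains of type VIII collagen, a short-chain collagen that forms hexagonal lattices under endothelia and in the cornea. Col8a1, at chr16:57624258-57754737 on the minus strand, had the smallest adjusted p of the collagen genes. It stood at 109, 106 and 127 CPM in the anterior and 527, 599 and 741 CPM in the posterior libraries. The groups lay far apart, with posterior replicate 1 at 462% of the anterior mean. The means were 114 ± 11.6 and 622 ± 109 CPM (SD, n = 3 each), and the log2 fold change was 2.45 (SE 0.16, adjusted p = 0.000211, edgeR). It was 2.21 with the library-group term (SE 0.13, adjusted p = 7.63e-05, edgeR) and 2.28 with the length correction (adjusted p = 5.8e-05, edgeR).

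Col8a2 did not follow it to that extent. Its groups did not overlap, but its log2 fold change was 0.58 (adjusted p = 0.0766, edgeR) and 0.17 with the library-group term. Per length, the ratio of Col8a1 to Col8a2 was 0.414, 0.431 and 0.513 in the anterior libraries and 1.85, 1.44 and 1.71 in the posterior libraries. So Col8a2 was the higher chain in every anterior library and Col8a1 in every posterior one, posterior replicate 1 included.

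**Figure D4:**
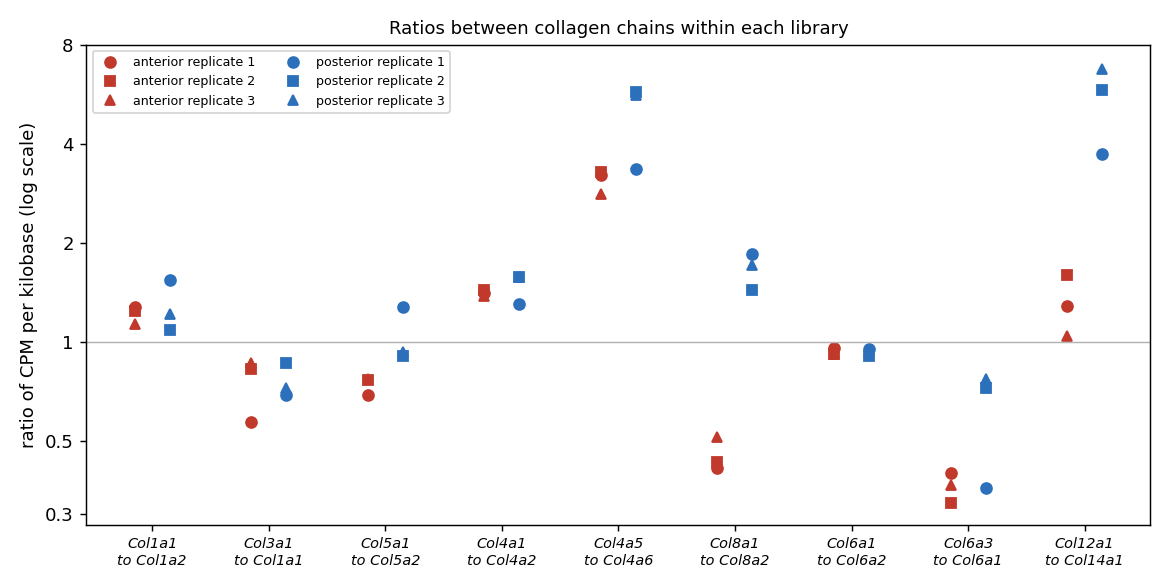
Ratio of CPM per kilobase between collagen chains in each library (log scale), anterior in red and posterior in blue. The ratio of Col8a1 to Col8a2 crosses 1 between the regions, and that of Col6a1 to Col6a2 stays between 0.909 and 0.959.

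Ratios between chains remove what both share within a library. Type VI collagen is built from 1 chain each of Col6a1, Col6a2 and Col6a3 or a relative, and Col6a1 and Col6a2 lie in tandem on chromosome 10. The ratio of Col6a1 to Col6a2 per length stayed between 0.909 and 0.959 in all 6 libraries. That of Col6a3 to Col6a1 was 0.324 to 0.401 in the anterior libraries and 0.361, 0.724 and 0.772 in the posterior ones, so only posterior replicates 2 and 3 lay above. The ratio of Col5a1 to Col5a2 was 0.692 to 0.770 in the anterior and 1.28, 0.909 and 0.930 in the posterior libraries, all above. The ratio of Col4a5 to Col4a6 was 2.81 to 3.28 in the anterior and 3.35, 5.73 and 5.64 in the posterior libraries, also without overlap. Those of Col1a1 to Col1a2, of Col3a1 to Col1a1 and of Col4a1 to Col4a2 overlapped between the regions.

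Of the beaded-filament genes, 1 of 4 tested was called. Col6a2, the highest of them per length, stood at 704, 836 and 866 CPM in the anterior and 847, 902 and 1137 CPM in the posterior libraries. The groups overlapped, and the log2 fold change was 0.26 (SE 0.15, adjusted p = 0.308, edgeR). Col6a1 and Col6a3 had log2 fold changes of 0.27 and 1.07 and were not called by edgeR in either fit, whereas DESeq2 called Col6a3 (adjusted p = 0.00744). Col6a6, a chain that can take the place of Col6a3, was called from low counts of 12, 26 and 36 in the anterior and 58, 139 and 182 in the posterior libraries. In CPM these were 0.911, 1.89 and 3.11 against 4.34, 10.04 and 12.5, with no overlap. The log2 fold change was 2.19 (SE 0.51, adjusted p = 0.0438, edgeR) and 1.16 with the library-group term (SE 0.48, adjusted p = 0.233, edgeR). Its neighbour Col6a5 gave 4 to 22 counts per library and was not tested.

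The FACIT collagens, which lie along fibrils and link them to other matrix, had 2 of 5 tested genes called, both higher in the posterior palate. Col12a1, the chain of type XII collagen of tendon, ligament and dense mesenchyme, stood at 243, 327 and 200 CPM in the anterior and 522, 2181 and 2422 CPM in the posterior libraries. Posterior replicates 2 and 3 were far above replicate 1, which was itself at 204% of the anterior mean. For Col12a1 the log2 fold change was 2.73 (SE 0.53, adjusted p = 0.0230, edgeR) and 1.02 with the library-group term (SE 0.21, adjusted p = 0.0248, edgeR). At 11511 bases, its transcript is the longest among the 36. The gene lies at chr9:79598991-79718831 on the minus strand.

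Col16a1, the chain of type XVI collagen, which joins small fibrils to other matrix, stood at 137, 127 and 120 CPM in the anterior and 216, 521 and 599 CPM in the posterior libraries. No library overlapped, and replicate 1 was again the lowest posterior library. Its log2 fold change was 1.80 (SE 0.34, adjusted p = 0.0199, edgeR) and 0.76 with the library-group term (SE 0.10, adjusted p = 0.00357, edgeR).

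Col14a1, the chain of type XIV collagen and the closest relative of Col12a1, stood at 106, 115 and 107 CPM in the anterior and 78.8, 209 and 201 CPM in the posterior libraries. As for Col5a2, posterior replicate 1 was the lowest of all libraries and the others were the highest. With region alone the log2 fold change was 0.57 (SE 0.33, adjusted p = 0.305, edgeR) and -0.48 with the library-group term (SE 0.08, adjusted p = 0.0103, edgeR). Per length, the ratio of Col12a1 to Col14a1 was 1.28, 1.60 and 1.04 in the anterior and 3.72, 5.84 and 6.76 in the posterior libraries, with no overlap. Col20a1 was low and had a log2 fold change of 0.20. Col19a1 gave 0, 0 and 2 counts in the anterior and 6, 15 and 10 counts in the posterior libraries, where 0 counts allow up to 0.228 and 0.218 CPM, counting error only.

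Col22a1 and Col24a1 were named after their values were seen, for the spread among the posterior libraries. Col22a1, known from the junction of muscle and tendon, stood at 68.9, 39.2 and 43.3 CPM in the anterior libraries and at 3.59, 6.43 and 66.4 CPM in the posterior ones. The fibrillar gene Col24a1, known from forming bone, stood at 56.3, 40.6 and 32.5 CPM against 24.3, 43.0 and 104 CPM. In both genes posterior replicate 3 was the highest posterior library and replicate 1 the lowest. The log2 fold changes were -0.98 (adjusted p = 0.519, edgeR) and 0.40 (adjusted p = 0.613, edgeR). With the library-group term they were -3.81 (adjusted p = 0.136, edgeR) and -0.83 (adjusted p = 0.412, edgeR). Osteoblast markers summed to 3600, 2927 and 1994 CPM in the anterior and to 296, 512 and 1851 CPM in the posterior libraries, the same order among the posterior libraries, and their part in the Col22a1 and Col24a1 values was not tested.

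**Figure D5:**
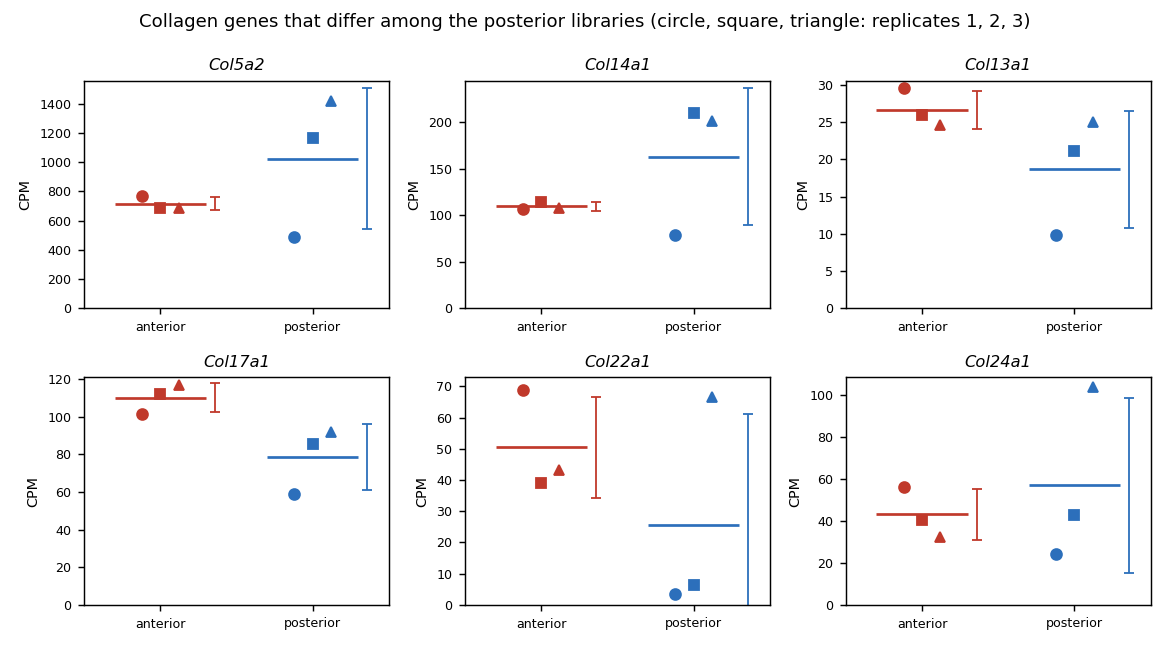
CPM in each library of 6 collagen genes whose posterior libraries differ among themselves, with lines for the group means and bars for the SD (n = 3), cut at 0 for Col22a1. Posterior replicate 1 (circle) lies below all anterior libraries in each panel, and posterior replicate 3 of Col22a1 and Col24a1 stands far above it.

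The transmembrane class held both directions. Col25a1, which is made by developing muscle and is needed for motor axons to enter it, had the largest fold change of the 32 genes tested. The study's single-cell data also list it among the markers of posterior palatal mesenchymal cells. The gene Col25a1 lies at chr3:130131501-130599877 on the plus strand. Its level was 18.6, 13.5 and 25.1 CPM in the anterior and 122, 270 and 329 CPM in the posterior libraries. Every posterior library was far above the anterior ones, replicate 1 at 640% of the anterior mean. The means were 19.1 ± 5.80 and 241 ± 107 CPM (SD, n = 3 each), and the log2 fold change was 3.66 (SE 0.40, adjusted p = 0.00228, edgeR). It was 2.69 with the library-group term (SE 0.23, adjusted p = 0.000433, edgeR). The skeletal muscle markers given above were also higher in every posterior library, at 772, 612 and 1071 CPM in replicates 1 to 3. Among the posterior libraries they were lowest in replicate 2, whereas Col25a1 was lowest in replicate 1. Their part in the Col25a1 difference was not tested.

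Col17a1, a hemidesmosome component that ties basal keratinocytes to the basement membrane, was the gene with every anterior library above every posterior one. It stood at 102, 112 and 117 CPM in the anterior and 58.9, 85.4 and 91.8 CPM in the posterior libraries. With region alone the log2 fold change was -0.48 (SE 0.17, adjusted p = 0.132, edgeR), which was not called. It was -0.90 with the library-group term (SE 0.10, adjusted p = 0.00173, edgeR) and -0.70 with the length correction (adjusted p = 0.00647, edgeR), and both were called. Epithelial markers summed to 1626 to 1729 CPM in the anterior libraries and to 1850, 1259 and 1112 CPM in posterior replicates 1 to 3. Of these 8 markers, Krt14 stood at 321 to 385 CPM in the anterior libraries and at 572, 327 and 243 CPM in posterior replicates 1 to 3. Trp63, the regulator of basal keratinocytes, was the 1 called with region alone, lower in the posterior palate with a log2 fold change of -0.65 (adjusted p = 0.00948, edgeR). Krt5, a basal keratin, had every posterior library below the anterior ones, and was called lower with the length correction (adjusted p = 0.0378, edgeR) and by DESeq2 (adjusted p = 0.00243) but not by edgeR with region alone (adjusted p = 0.0616). Over the 8 epithelial markers the median log2 fold change was -0.21 with region alone and 0.07 with the library-group term. The part of the epithelial markers in the Col17a1 values was not tested.

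Col13a1, a collagen of cell adhesion sites and of the neuromuscular junction, stood at 29.5, 26.0 and 24.6 CPM in the anterior and 9.81, 21.2 and 25.0 CPM in the posterior libraries. Only posterior replicate 1 lay far below the others. Its log2 fold change was -0.52 (SE 0.30, adjusted p = 0.322, edgeR) and -1.44 with the library-group term (SE 0.18, adjusted p = 0.00245, edgeR). Col23a1, the highest of the class per length, stood at 174, 175 and 173 CPM in the anterior libraries and at 161, 205 and 238 CPM in the posterior ones. The anterior libraries were nearly equal and lay inside the posterior range, and the log2 fold change was 0.21 (SE 0.14, adjusted p = 0.382, edgeR).

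Of the remaining members, Col26a1, a collagen first found in testis and ovary, stood at 257, 292 and 446 CPM in the anterior and 470, 435 and 550 CPM in the posterior libraries. Anterior replicate 3 overlapped the posterior range, and the log2 fold change was 0.55 (SE 0.21, adjusted p = 0.163, edgeR). Col28a1, known from peripheral nerve, gave 8 to 13 counts per library and a log2 fold change of 0.44, not called.

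Collagen chains are modified, folded, exported, trimmed and crosslinked by a further set of proteins, and 43 of 44 such matrix-building genes were tested. In the posterior palate 4 of the 43 rose (4.87% of all genes tested did), in the anterior palate 2 were higher (2.59%), and the median log2 fold change was 0.15. With the library-group term the counts were 4 and 4 (4.40% and 3.21% of all genes tested), with a median of -0.08. The number called in either direction, 6, was 27 without posterior replicate 1, where 46.4% of all genes tested were called. It was 2 without anterior replicate 1 (3.38% of all genes tested) and 3 without anterior or posterior replicate 2 (3.23% and 3.25%). Colgalt2, which adds galactose to collagen hydroxylysine, stood at 3.95, 6.11 and 4.85 CPM in the anterior and 15.4, 19.1 and 27.2 CPM in the posterior libraries, without overlap. Its log2 fold change was 2.05 (SE 0.26, adjusted p = 0.00396, edgeR) and 1.63 with the library-group term (adjusted p = 0.00834, edgeR). P3h3, a member of the prolyl 3-hydroxylase family, stood at 117, 117 and 127 CPM against 175, 203 and 249 CPM, a log2 fold change of 0.80 (adjusted p = 0.0135, edgeR) and of 0.54 with the library-group term (adjusted p = 0.0242, edgeR). The crosslinking enzyme Loxl3, a lysyl oxidase needed for palate closure in mice, stood at 18.2, 16.9 and 22.3 CPM against 31.7, 44.4 and 48.8 CPM, a log2 fold change of 1.12 (adjusted p = 0.0121, edgeR) and of 0.73 with the library-group term (adjusted p = 0.0280, edgeR).

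The enhancers of procollagen C-proteinase went opposite ways. Pcolce, which speeds removal of the C-propeptide of fibrillar procollagens, stood at 79.0, 97.4 and 87.4 CPM in the anterior and 151, 131 and 161 CPM in the posterior libraries. Its relative Pcolce2 stood at 39.0, 36.1 and 22.2 CPM in the anterior and 2.40, 3.40 and 7.89 CPM in the posterior libraries. Neither gene had overlapping groups. The log2 fold changes were 0.75 (SE 0.12, adjusted p = 0.00997, edgeR) for Pcolce and -2.82 (SE 0.43, adjusted p = 0.00768, edgeR) for Pcolce2, and with the library-group term they were 0.78 and -3.76, both called. Creb3l1, a transcription factor that drives type I collagen genes in bone, stood at 198, 195 and 120 CPM against 77.0, 64.9 and 97.9 CPM. Its log2 fold change was -1.10 (SE 0.23, adjusted p = 0.0273, edgeR), and the call was lost with the library-group term at a log2 fold change of -1.15 (adjusted p = 0.0713, edgeR). The osteoblast markers given above were also lower in posterior replicates 1 and 2 than in the anterior libraries. In posterior replicate 3 they summed to 1851 CPM, against 1994 CPM in anterior replicate 3, whereas Creb3l1 stayed below every anterior library. Of the 7 osteoblast markers tested, 1 was called, higher in the anterior palate. Their part in the Creb3l1 values was not tested.

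The collagens of cartilage were counted apart. Of 6 tested among 7, 3 were called higher in the posterior palate by edgeR (4.87% of all genes tested were), and 3 with the library-group term (4.40%). The median log2 fold change was 1.22, and 0.45 with the term, and 1 of the 6 was negative in both. Chondrocyte markers summed to 74.9 to 89.2 CPM in the anterior and 112 to 145 CPM in the posterior libraries.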

How the data were processed

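Bulk RNA-seq of 3 anterior and 3 posterior palate samples was grouped by the region in the labels. The deposited values are the authors' raw read counts per gene on mm10. The submitters' processing notes name HISAT2, StringTie and DESeq2 1.30.1, whereas the files are laid out as STAR writes gene counts, and the annotation version is not given in the sources used here. The reverse-stranded counts were used (11378736 to 15172733 per library, where 3 counts, the limit that a count of 0 allows, are 0.206 to 0.260 CPM with TMM scaling). Multimapping, unmapped, ambiguous and no-feature reads stayed out of library sizes (no-feature reads were 5.92% to 8.71% of reads). Identifiers were matched to GENCODE M21 with the version dropped (52073 of 56691 had a symbol), which also gave positions and transcript lengths, the latter for 99.0% of genes tested.

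Testing was done in edgeR 4.0.16 (R 4.3.3) on genes that reached 10 counts in 3 or more libraries (TMM, quasi-likelihood test, region as the only term, Benjamini-Hochberg adjustment over all genes, threshold 0.05). Alternatives used DESeq2 1.42.0, limma 3.58.1 (voom), other scaling and filters, unstranded counts, GC and length corrections, a replicate block, the library-group term and each library left out. The fits were tested on simulated data. Named genes are those called with region alone or with the library-group term, the highest of each class per length, head-to-head pairs and called matrix-building genes. The members and lists were chosen with earlier results of these data known. Within a region, libraries differed beyond sampling noise (chi-square per gene 3.73 to 68.0).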

Additional observations from a re-analysis of the deposited data

How the results depend on the processing

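The count of collagen genes called was 8 and lay between 6 and 9 with limma-voom, other scaling, a stricter filter, unstranded counts, GC or length correction and the library-group term. It was 14 with DESeq2 (12.6% of all genes tested were called) and 15 without a low-count filter (7.14% of 30259), and 2 to 26 with one library left out. No collagen gene was called higher in the anterior palate by the reported fit, against 1 with the length correction, 4 with the library-group term, 5 with posterior replicate 1 alone against the anterior libraries (an alternative chosen after seeing the data, in which the lone library is assumed to vary like the others), and 0 to 1 with one library left out. The count of matrix-building genes called was 6 (7.46% of all genes tested were called). It was 12 with DESeq2 (12.6%), 12 without the filter (7.14%) and 2 to 27 with one library left out (3.23% to 46.4%). The cause of these shifts was not tested. The difference in collagen share was 0.923 to 1.74 percentage points with one library left out, where 2 against 3 libraries cannot give a p below 0.2.

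Among the genes named by rule, directions turned under few alternatives. With the library-group term and with posterior replicate 1 alone, respectively, the log2 fold change was -0.56 and -0.56 for Col5a2, -0.10 and -0.10 for Col4a1, -0.29 and -0.29 for Col4a5, -0.41 and -0.41 for Col4a6, -0.48 and -0.48 for Col14a1 and -0.12 and -0.12 for Col23a1. For Col23a1 it was also -0.0033 with the length correction. The cause was not tested. Among 26 named genes, the alternatives that kept all libraries left direction and call as they were in 282 cases, gained a call in 10, lost one in 13 and turned the direction in 7. With one library left out the numbers were 103, 11, 42 and 0.

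With a replicate block, 6 collagen genes and 6 matrix-building genes were called, as were 5.29% of all genes tested. Under the block, Col3a1 and Col27a1 (adjusted p = 0.0513 each, edgeR) and Creb3l1 (adjusted p = 0.0686, edgeR) lost their calls. The correlations of same-numbered deviations were -0.05, 0.05 and 0.04, which gave no sign of pairing by replicate number. They cannot exclude pairing, since the posterior deviations mostly part replicate 1 from replicates 2 and 3. Depth limits Col4a3, Col4a4, Col6a5 and Col19a1, and 3 libraries per region limit every other value.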
